A study of Danio rerio with 3 samples.

Results

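Interleukin 1 beta, inflammasome and TNF genes were examined in whole zebrafish larvae as a set of 10 genes, picked by symbol from 24555 genes in the deposited tables. The set holds the secreted signals il1b, tnfa, tnfb and cxcl8a, the inflammasome genes pycard, caspa and caspb, and the genes nfkbiaa, tnfaip2b and irg1l. All 10 were found, 7 in the table of all libraries and 3 (il1b, tnfa and tnfb) in the table that sets transgenic against control alone. The genes were proposed with FPKM of these libraries already known, so their levels and differences are a description and no test is made on them.

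Interleukin 1 beta is a cytokine that is made as a precursor and is activated when a caspase of the inflammatory group cuts it. In the inflammasome, a sensor protein recruits the adaptor ASC, the product of pycard, which gathers these caspases into a single large speck. Interleukin 1 beta and TNF both act through receptors that release the transcription factor NF-κB from its inhibitor, and the genes of many cytokines, chemokines and NF-κB inhibitors are themselves NF-κB targets.

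The 3 groups were on the AB background, and RNA was taken at 7 days post fertilization from 30 larvae pooled per group. The transgenic group carried the construct labelled Tg (huc:teton:gal4; tre:serpini1:mkate2), a Tet-On driver under the neuronal huc promoter with a responder for serpini1 and the red fluorescent protein mKate2. The knockout group was titled serpini1-/-, and its labels do not describe the mutation. The control group was wild type. Serpini1 encodes neuroserpin, a protease inhibitor of the nervous system. Every group, control included, was kept in doxycycline at 40 µg/mL between day 3 and day 7. Serpini1, the driver and mKate2 came together in the transgenic group, and their effects cannot be told apart.

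Each group had 1 library, so no difference has a replicate check and no p-value is given. Levels are FPKM, a count of fragments per transcript length and library size. Library depth, as worked out from the authors' p-values, was close to 7980000 fragments in the transgenic, 7760000 in the knockout and 7740000 in the control library. Intervals are exact 95% intervals on reads estimated with these depths, and hold counting error alone, without the variation from pool to pool. For abundant genes, at a cut of 1000 reads, the robust standard deviation of log2 ratios over control was 0.363 in the transgenic and 0.183 in the knockout library. Counting alone would give 0.069. An interval that excludes 1 can thus lie within the ordinary spread between 2 libraries. Serpini1 itself stood at 288 FPKM in the transgenic, 8.05 in the knockout and 20.04 in the control library.

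A gene was called higher or lower when log2 of the ratio of FPKM + 1 reached 1 in size, a 2-fold difference, and genes under 1 FPKM in both libraries were not compared. In the transgenic library 6 of the 9 genes compared were called higher and 0 lower, while 3.56% of all genes compared were called higher and 1.26% lower. Il1b and tnfaip2b were under 1 FPKM in the control library and entered the comparison only through their transgenic level, so their difference was fixed to lie above 0. In the knockout library 0 of 6 were called higher and 1 was called lower, against 0.798% and 0.664% of all genes. Irg1l, the 1 lower gene, and cxcl8a were under 1 FPKM in the knockout library and entered only through their control level. Their knockout difference was thus fixed to lie below 0. The share of all genes called lower is approximate, since 217 genes at 1 FPKM or more in control, tnfb among them, had no knockout value and were not compared. The 10 genes thus fell into those with large transgenic differences (il1b, tnfaip2b, irg1l and cxcl8a), those with moderate ones (caspb and pycard) and those within the 2-fold rule or too low to compare (caspa, nfkbiaa, tnfb and tnfa).

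**Figure D1:**
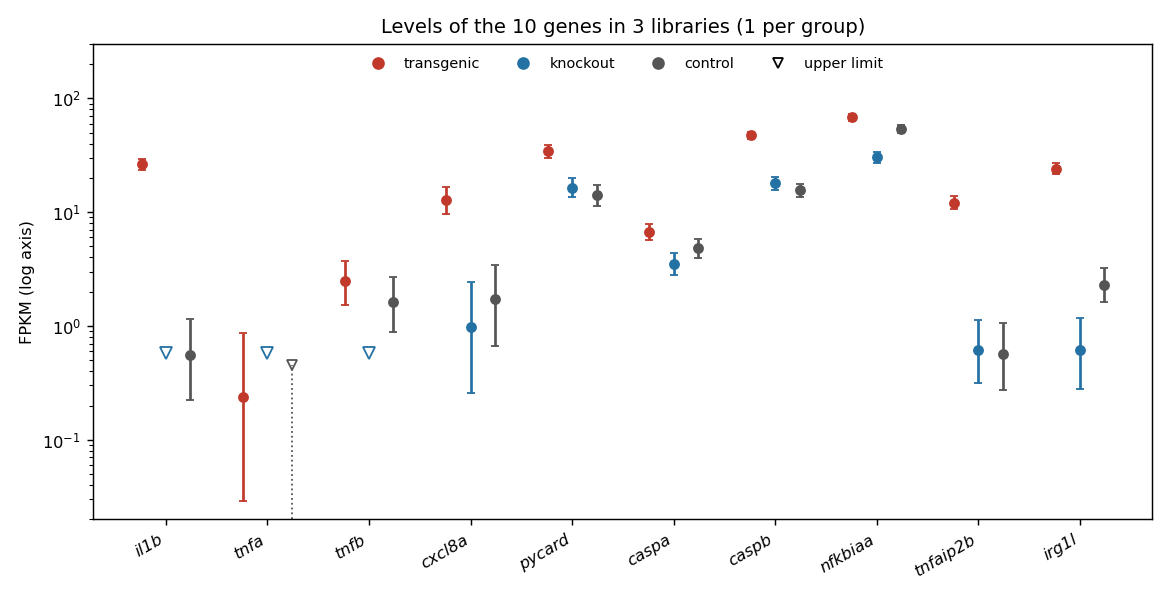
FPKM (log axis) of each of the 10 genes in the transgenic, knockout and control libraries, 1 library per group; bars are 95% counting intervals, blue open triangles mark the limit of 0.58 FPKM for genes with no knockout value used, and the open grey triangle marks the upper end of the interval of tnfa, listed at 0 in control. Il1b stood at 26.25 FPKM in the transgenic library and 0.56 in control, while nfkbiaa stood above 30 FPKM in all 3 libraries.

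Among the secreted signals, il1b, which encodes interleukin 1 beta itself (transcript length 1713 bases), had the largest ratio of the set. It stood at 26.25 FPKM in the transgenic library (interval 23.5 to 29.2), against 0.56 FPKM in control (0.225 to 1.15). These levels came from about 338 reads in the transgenic and 7 reads in the control library. The transgenic level was 46.9-fold higher (22.5 to 117), and on the scale of FPKM + 1 the log2 ratio of 4.13 ranked 9 of 19242 genes from the highest. With 7 reads in control the size of the ratio is loosely fixed, although the intervals of the levels lie far apart. No knockout value of il1b was used. The table of all libraries is sorted by the knockout level and the part used here ends at 0.58 FPKM, so il1b is taken to lie at or under 0.58 FPKM in the knockout, a limit that does not separate it from control.

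Cxcl8a encodes a chemokine of the interleukin 8 type, which attracts neutrophils. It stood at 12.9 FPKM in the transgenic, 0.98 in the knockout and 1.71 in the control library, from 56, 4 and 7 reads. The transgenic library was the high one, 7.54-fold above control (3.53 to 20.2) and 13.2-fold above the knockout (5.03 to 51.7). The knockout and control intervals, 0.257 to 2.42 and 0.666 to 3.41 FPKM, overlapped, so a difference between them was not detectable at this depth.

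The TNF genes, which encode cytokines of the tumour necrosis factor family, were low in the libraries that gave a value. Tnfb was at 2.46 FPKM in the transgenic library and 1.62 in control, from 22 and 14 reads, and the ratio of 1.52 had an interval of 0.746 to 3.22. Tnfa was at 0.24 FPKM in the transgenic library, from 2 reads, and was listed at 0 in control. In control, 3 reads of tnfa would come to 0.371 FPKM, and the count of 0 allows a level up to 0.456 FPKM. The transgenic interval ran from 0.029 to 0.866 FPKM, so the 2 libraries could not be separated and no ratio is given. The authors' deposited table prints a log2 ratio of 4.58 for tnfa, which comes from writing a 0 as 0.01 FPKM, with an FDR of 0.434. For the knockout, tnfb is taken to lie at or under 0.58 FPKM. At that limit its log2 ratio over control on the scale of FPKM + 1 would be -0.73, which does not settle whether it would pass the 2-fold rule.

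Of the inflammasome genes, caspb and pycard were higher in the transgenic library and close to control in the knockout. Caspb encodes a caspase with a pyrin domain that in zebrafish can bind bacterial lipopolysaccharide. It stood at 47.3 FPKM in the transgenic, 17.89 in the knockout and 15.55 in the control library. The transgenic level was above control by 3.04-fold (2.60 to 3.58), and the ratio of knockout over control was 1.15 (0.952 to 1.39). Pycard, the gene of the adaptor ASC, stood at 34.3 FPKM in the transgenic, 16.45 in the knockout and 14.1 in the control library. The transgenic ratio was 2.44 (1.91 to 3.16) and the knockout ratio 1.17 (0.879 to 1.57).

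Caspa, the other inflammatory caspase of the set and the zebrafish counterpart of mammalian caspase 1, differed less. It stood at 6.68 FPKM in the transgenic (5.69 to 7.79), 3.5 in the knockout (2.78 to 4.34) and 4.85 in the control library (3.98 to 5.81). The transgenic library was thus the high one and the knockout the low one, with intervals that overlap those of control at the edges. The ratio over control was 1.38 in the transgenic (1.08 to 1.77) and 0.722 in the knockout library (0.538 to 0.971), both within the 2-fold rule. No pair of reads near the estimates of 161 in the transgenic and 113 in the control library gave the authors' p. The read counts behind these intervals are thus less certain.

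Nfkbiaa, which encodes an IκB-alpha protein that holds NF-κB in the cytoplasm, was the most abundant of the 10 genes in all 3 libraries. It stood at 67.9 FPKM in the transgenic (62.9 to 73.3), 30.2 in the knockout (26.8 to 33.9) and 53.9 in the control library (49.4 to 58.8). The larger departure from control was in the knockout, which was 1.78-fold lower (1.54 to 2.07), while the transgenic library was 1.26-fold higher (1.12 to 1.42). Neither passed the 2-fold rule, and the transgenic library was 2.25-fold above the knockout (1.96 to 2.59).

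Irg1l encodes a relative of the mitochondrial enzyme that makes itaconate, a metabolite of activated phagocytes. It differed from control in both other libraries, in opposite directions. Its level was 24.2 FPKM in the transgenic (21.8 to 26.8), 0.61 in the knockout (0.280 to 1.16) and 2.3 in the control library (1.61 to 3.24), from 365, 9 and 34 reads, and no interval overlapped another. In the transgenic library it was above control by 10.5-fold (7.32 to 15.3). In the knockout it was below control by 3.77-fold (1.78 to 8.97), with a log2 ratio of -1.04 on the scale of FPKM + 1 that is just past the 2-fold rule. That call was lost when ratios were centred on the median of abundant genes (log2 ratio -0.9983).

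Tnfaip2b, named for the induction of its human relative by TNF, lay at like low levels in the knockout and control libraries. It stood at 12.15 FPKM in the transgenic, 0.62 in the knockout and 0.57 in the control library, from 219, 11 and 10 reads. The transgenic library was above control by 21.3-fold (11.3 to 44.9) and above the knockout by 19.6-fold (10.6 to 39.4). The ratio of knockout over control was 1.09, with an interval of 0.423 to 2.88, so that only large differences could have been seen.

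**Figure D2:**
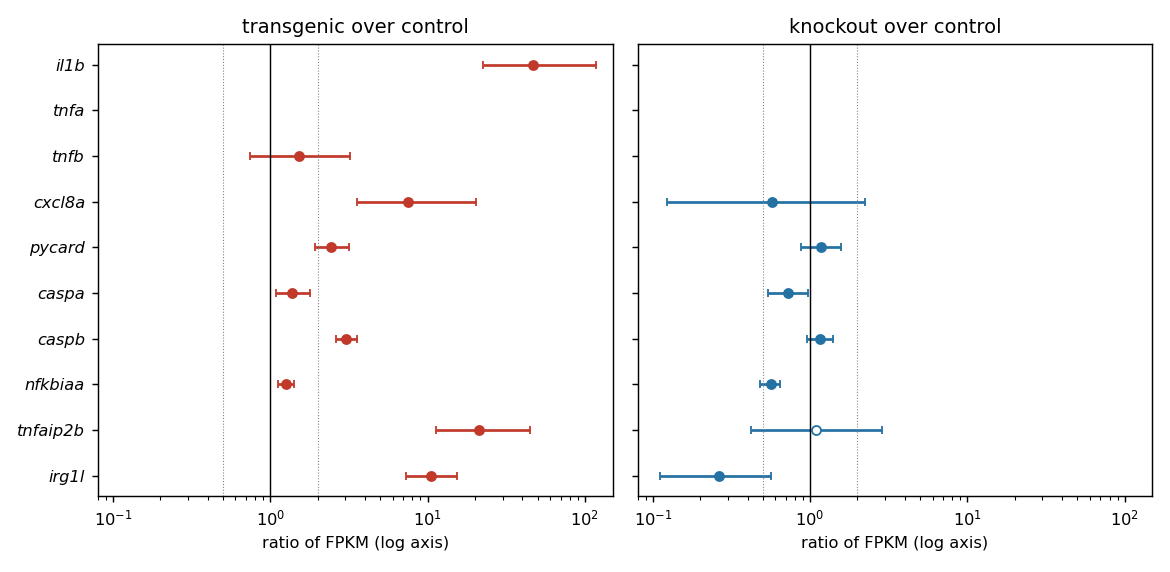
Ratio of FPKM (log axis) of each gene, transgenic over control at left and knockout over control at right, with 95% counting intervals; the solid line marks 1 and the dotted lines 0.5 and 2, the open circle marks a gene under 1 FPKM in both libraries, and genes without a usable value in both libraries have no point. Il1b lies at 46.9 in the transgenic library, and irg1l lies at 10.5 in the transgenic and 0.265 in the knockout library.

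The order of the levels differed between the libraries. In control it ran from nfkbiaa through caspb, pycard, caspa, irg1l, cxcl8a, tnfb, tnfaip2b and il1b to tnfa. The intervals of caspb and pycard overlapped there, as did those of each pair of neighbours from irg1l down to tnfa. In the transgenic library il1b had moved up to place 4, next to irg1l at place 5, and the intervals of these neighbours overlapped, as did those of cxcl8a and tnfaip2b. Il1b was higher than 90.9% of all genes in the transgenic library and higher than 18.998% of them in control. The corresponding shares for tnfaip2b were 80.3% and 19.2%.

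Set directly against the knockout library, 6 of the 7 genes with a value in each library were higher in the transgenic by the 2-fold rule, where 2.86% of all genes were higher and 1.08% lower, and caspa had a ratio of 1.91 (1.45 to 2.52). Of the 6, tnfaip2b, irg1l and cxcl8a were under 1 FPKM in the knockout and entered only through their transgenic level, which left 3 of 4 higher among the genes at 1 FPKM or more in the knockout. The comparisons share libraries and are not independent of each other. By the counting interval alone, 8 of 9 genes lay above control in the transgenic library and 3 of 6 below control in the knockout. That rule marked 23.4% and 15.7% of all genes in the same directions. Il1b and tnfaip2b among the 8, and irg1l among the 3, were fixed in direction by the floor of 1 FPKM. Caspa is in both counts, although no pair of reads near its estimates gave the authors' p.

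**Figure D3:**
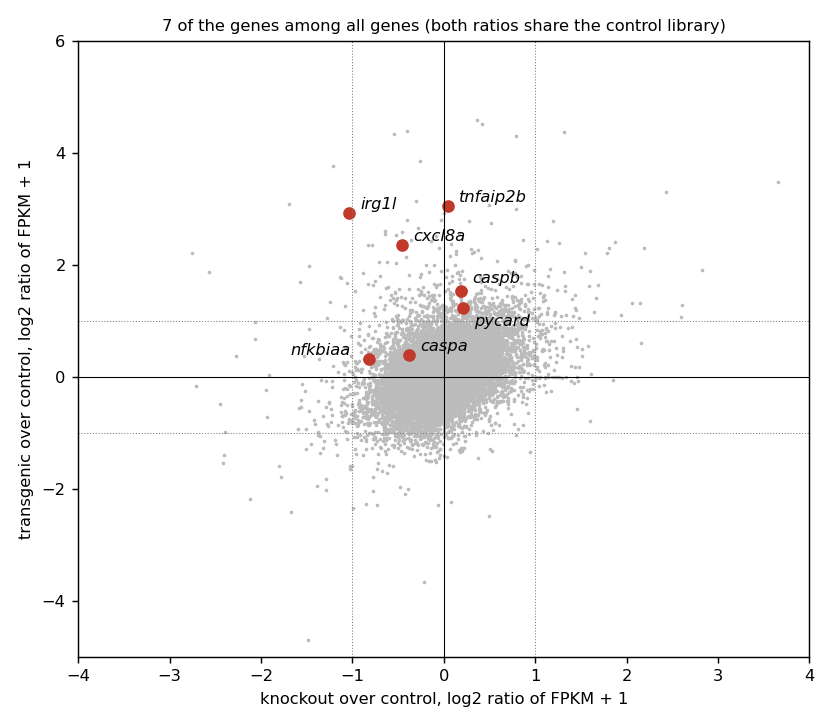
Log2 ratio of FPKM + 1 over control in the knockout (horizontal axis) and the transgenic library (vertical axis) for all genes with 3 values (grey) and 7 of the set (red); dotted lines mark the 2-fold rule, and both axes share the control library. Irg1l lies at -1.04 and 2.93, tnfaip2b at 0.05 and 3.07, and nfkbiaa at -0.81 and 0.33.

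Related copies of several genes gave a second reading, and were chosen after their values were seen. Cxcl8b.1, another gene of the interleukin 8 type, stood at 14.6 FPKM in the transgenic, 1.25 in the knockout and 1.88 in the control library, a pattern close to that of cxcl8a. Acod1, the zebrafish gene named for the itaconate enzyme itself, stood at 4.94 FPKM in the transgenic, 0.64 in the knockout and 1 in the control library. Its transgenic ratio of 4.94 (2.56 to 10.5) lay below that of irg1l. Tnfaip2a, in contrast to tnfaip2b, differed little, at 5.16, 5.43 and 5.34 FPKM in the transgenic, knockout and control libraries. Nfkbiab, the paralog of nfkbiaa, stood at 124 FPKM in the transgenic, 81.9 in the knockout and 106 in the control library, the same order of libraries as nfkbiaa. Caspbl, a near relative of caspb, was at 0.71 FPKM in the transgenic library and listed at 0 in control. The labels do not say whether the authors' counting split reads between such copies, so the value of caspb is uncertain to that extent.

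Other genes of these pathways were counted in 6 lists of 132 matched genes, none of them members of the set. The lists were chosen with earlier results of these data known, so their counts and medians are a description and not a test. Over all lists, 24 of 109 genes compared were higher and 0 lower in the transgenic library, beside 3.56% and 1.26% of all genes. The median log2 ratio was 0.39 beside 0.03 over all genes. In the knockout, 0 of 100 were higher and 3 lower, beside 0.798% and 0.664% of all genes, with a median of -0.11 beside -0.03. Counts of single lists below are to be read against the same shares. Of the 109 genes, 12 were under 1 FPKM in control and entered only through their transgenic level, and without them 19 of 97 were higher. Some list genes, such as tnip2, acod1 and hamp, were under 1 FPKM in the knockout and entered its comparison only through control. They were fixed to lie below 0. In the knockout comparison no gene of these lists at 1 FPKM or more in control lacked a knockout value, but 1 of the 3 lower genes, hamp, had its value from the authors' table of called genes alone. Without genes of that kind 2 of 99 were lower, against 0.537% of all genes. Over all genes 52.5% lay above 0 in the transgenic library, and 44.9% lay above 0 and 54.4% below it in the knockout, shares against which counts by sign are to be read. By list, 14 of 23 inflammatory effectors and 7 of 25 cytokines, chemokines and their receptors were higher in the transgenic library. Of these higher genes, 5 were under 1 FPKM in control and entered only through their transgenic level. The other 4 lists held 3 among 61, close to the share of 3.56% over all genes.

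The receptors and adaptors that carry the interleukin 1 and Toll signals had 1 of 14 genes past the rule in the transgenic library and a median log2 ratio of -0.02. The interleukin 1 receptor genes il1r1 and il1r2 were written in this list but not matched, so they have no value here. The gene past the rule was tlr5b, a receptor for bacterial flagellin, at 6.81 FPKM in the transgenic, 2.48 in the knockout and 2.06 in the control library. The shared adaptor gene myd88, chosen after its value was seen, had a ratio of 1.24 (0.878 to 1.79). Tab1, which encodes a partner of the kinase TAK1 and was also chosen afterwards, was lower in the transgenic library, at 32.03 FPKM, than in control, at 58.3 FPKM. Its ratio of 0.550 (0.485 to 0.622) was within the 2-fold rule.

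Of 12 other inflammasome and pyroptosis genes compared, 1 was higher in the transgenic library and the median was 0.37. That gene was hmgb1a, a chromatin protein that also acts as an alarm signal outside the cell, at 74.4 FPKM in the transgenic, 44.4 in the knockout and 33.0 in the control library. The gasdermin genes gsdmea and gsdmeb, which in their cut form open pores in the membrane, had ratios of 1.56 (0.749 to 3.41) and 1.102 (0.809 to 1.4997). P2rx7, an ATP-gated channel that triggers the inflammasome in mammals, was at 2.06 FPKM in the transgenic library and 4.7 in control, a ratio of 0.438 (0.289 to 0.653). The gasdermins and p2rx7 were chosen after their values were seen and none of them passed the 2-fold rule. P2rx7 was 2.28-fold lower by FPKM, but its log2 ratio on the scale of FPKM + 1, which the rule uses, was -0.897.

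TNF receptors and adaptors had 1 of 17 genes higher in the transgenic library and a median of 0.24. It was tnfaip6, which encodes a secreted protein that binds hyaluronan, at 11.9 FPKM in the transgenic, 3.81 in the knockout and 3.60 in the control library. Tnfrsf1a, the main TNF receptor gene, chosen afterwards, stood at 9.91, 4.59 and 5.43 FPKM in the same order. Among NF-κB subunits and inhibitors 0 of 18 passed the rule in the transgenic library, with 15 of 18 above 0, where 52.5% of all genes were, and a median of 0.22. The subunit gene rel, chosen afterwards, was at 8.24 FPKM in the transgenic, 3.13 in the knockout and 4.64 in the control library. Neither list had a gene past the rule in the knockout.

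Cytokine and chemokine genes held 7 of 25 past the rule, all higher in the transgenic library, with a median of 0.42. Of the 7, ccl20a.3, ccl38a.5 and il11a were under 1 FPKM in control and entered only through their transgenic level. The ratio over control was 7.79 for cxcl8b.1 (3.98 to 18.1), 5.46 for the chemokine gene cxcl18b (2.52 to 15.0) and 4.29 for ccl34a.4 (1.84 to 13.4). Ccl19a.1 stood at 11.4 FPKM in the transgenic, 4.58 in the knockout and 3.21 in the control library. Ccl38a.5 and ccl20a.3 were at 2.41 and 1.69 FPKM in the transgenic library and both listed at 0 in control. In the knockout, 0 of 21 genes of this list passed the rule and the median was -0.34, with 13 of 21 below 0, near the share of 54.4% over all genes. Among the 13, csf3r and ccl34a.4 were under 1 FPKM in the knockout and were fixed to lie below 0.

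Among inflammatory effectors 14 of 23 were higher in the transgenic library, with a median of 1.22. Of the 14, saa and lepb were under 1 FPKM in control and entered only through their transgenic level. Serum amyloid A (saa), an acute phase protein, was at 25.9 FPKM there and listed at 0 in control. The leptin gene lepb had a ratio of 84.6 (23.3 to 711), and the protease genes mmp13a and mmp9 ratios of 25.3 (19.4 to 33.3) and 24.1 (19.96 to 29.7). Hepcidin (hamp), the iron hormone, stood at 30.7 FPKM in the transgenic library, was listed at 0 in the knockout and stood at 5.78 in control. Fosl1a, a subunit of the AP-1 transcription factor, stood at 24.9 FPKM in the transgenic, 3.4 in the knockout and 5.34 in the control library. In the knockout 3 of 21 were lower, namely hamp, the AP-1 gene junbb (36.4 FPKM in the knockout and 90.0 in control) and the heme oxygenase gene hmox1a (3.43 and 8.06 FPKM), and the median was -0.29. The 0 of hamp lies under the 0.58 FPKM where the table of all libraries ends and was given in the authors' table of called genes.

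**Figure D4:**
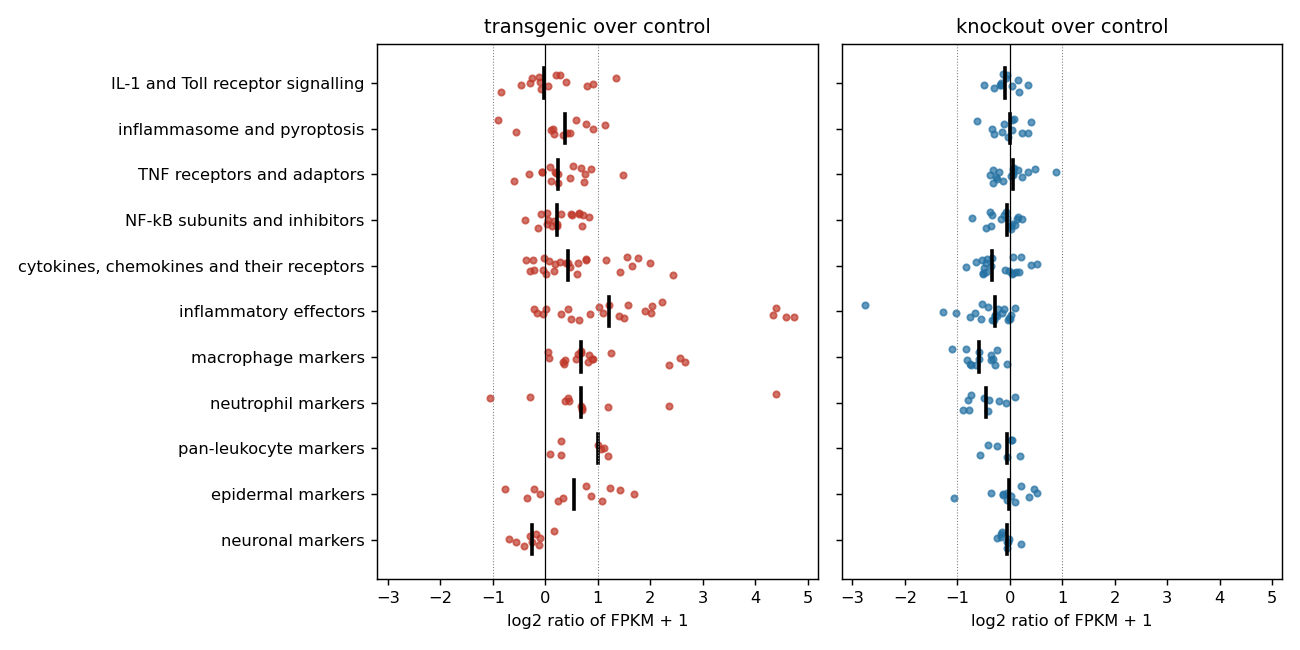
Log2 ratio of FPKM + 1 of each gene compared in 6 pathway lists and 5 lists of cell type markers, transgenic over control at left and knockout over control at right; black bars are list medians and dotted lines the 2-fold rule. The inflammatory effectors have a median of 1.22 in the transgenic library and -0.29 in the knockout, and the macrophage markers medians of 0.69 and -0.58.

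Log2 ratios of most blood cell markers lay above 0 in the transgenic library, as did those of the set genes compared. In the knockout the macrophage markers lay below 0, as did 4 of the 6 set genes compared. The other set genes compared, caspb and pycard, had ratios over control of 1.15 (0.952 to 1.39) and 1.17 (0.879 to 1.57). Of the 4 below 0, irg1l and cxcl8a were under 1 FPKM in the knockout. They entered only through their control level and were fixed to lie below 0. In RNA of whole larvae more cells of a type and more RNA per cell cannot be told apart. Of 17 macrophage markers compared, 17 lay above 0 in the transgenic library and 4 passed the 2-fold rule, and of 14 compared in the knockout 14 lay below 0 and 1, ctss2.1, passed it. Macrophage and neutrophil markers under 1 FPKM in control entered the transgenic comparison only through their transgenic level. Such markers, which both lists held, were fixed to lie above 0. In the knockout comparison, markers under 1 FPKM in the knockout entered only through control and were fixed to lie below 0. Of all genes 52.5% lay above 0 in the transgenic library and 3.56% were called higher. In the knockout 54.4% of all genes lay below 0 and 0.664% were called lower. Over the 16 macrophage markers with 3 values, the summed level was 816 FPKM in the transgenic, 360 in the knockout and 469 in the control library, where apoeb alone gave 403 FPKM. The ratios of single macrophage markers over control ran from 1.04 (csf1rb) to 8.93 (mpeg1.2) in the transgenic library, with a median of 1.74, and from 0.335 (irf8) to 0.962 (slc7a7) in the knockout, with a median of 0.573. The transgenic ratios of cxcl8a, caspb and pycard, 7.54, 3.04 and 2.44, lay inside the range of the macrophage markers, and those of irg1l, tnfaip2b and il1b, 10.5, 21.3 and 46.9, above it. The upper end of that range is the value of mpeg1.2 alone. The intervals of cxcl8a (3.53 to 20.2) and irg1l (7.32 to 15.3) both hold it, so their side of it is not settled.

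Neutrophil markers had 3 higher and 1 lower of 11 compared in the transgenic library, beside 3.56% and 1.26% of all genes. In the knockout 9 of 10 lay below 0, beside 54.4% of all genes. Their ratios over control in the transgenic library ran from 0.480 (cpa5) to 25.3 (mmp13a), a range that held irg1l and tnfaip2b and not il1b, whose ratio rests on 7 reads in control. The upper end of that range is set by mmp13a alone, which is also counted among the inflammatory effectors. The 1 lower marker was cpa5, which also set the sum of the list, at 606 FPKM in the transgenic, 1346 in the knockout and 1262 in the control library. Whether the RNA of cpa5 came from neutrophils was not tested. Without cpa5 and mmp13a, a choice made after the values were seen, the other 9 markers with 3 values summed to 257 FPKM in the transgenic, 74.3 in the knockout and 102 in the control library. Markers shared by all white blood cells summed to 110, 49.1 and 54.3 FPKM in the transgenic, knockout and control libraries over 7 genes. Of them 4 were higher in the transgenic library, beside the same 3.56% of all genes. In the knockout 4 of the 7 lay below 0, with a median ratio over control of 0.961. No marker of these 3 lists was listed at 0 in control. The part of these cells in the differences of the set was not tested.

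Epidermal markers had 4 of 12 higher in the transgenic library, and 1, krt96, lower in the knockout, beside 3.56% and 0.664% of all genes. Their sum, led by krt91, krt4, krt5 and krt17, was 6779 FPKM in the transgenic, 9116 in the knockout and 8071 in the control library. By contrast with that sum, 8 of 12 lay above 0 in the transgenic library and the median ratio over control was 1.51, in a range from 0.585 (krt91) to 3.597 (krt96). Neuronal markers, led by stmn1b, snap25a, snap25b and sypa, summed to 604 FPKM in the transgenic, 663 in the knockout and 693 in the control library over 9 genes, and none passed the 2-fold rule. In the transgenic library 8 of the 9 lay below 0, beside 47.2% of all genes, with a median ratio over control of 0.836. In the knockout 8 of the 9 lay below 0, beside 54.4% of all genes, with a median ratio of 0.963. Their part in the differences of the set was not tested either.

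The 5 genes most like irg1l over the 3 libraries were those with the smallest Euclidean distance between their pair of log2 ratios of FPKM + 1 over control and that of irg1l, among 19001 genes. Il1b could not serve for this for want of a knockout value, and irg1l and caspb were taken in its place after the values were seen. For irg1l they were zgc:198419 at a distance of 0.514, grn2 at 0.540, mfap4 at 0.600, lect2l at 0.623 and itln3 at 0.640. Grn2 and mfap4 are on the list of macrophage markers and lect2l on that of neutrophil markers. Mfap4 stood at 24.1 FPKM in the transgenic, 1.73 in the knockout and 3.87 in the control library. For caspb the nearest were cdca7a at 0.024, pdia4 at 0.050, cyp1a at 0.051, zgc:172253 at 0.057 and zgc:162144 at 0.071.

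The authors' deposited table of the transgenic comparison gives log2 ratios without a pseudocount of 5.55 for il1b, 4.41 for tnfaip2b, 3.39 for irg1l and 2.92 for cxcl8a. In that authors' deposited table the FDR is 8.1e-87 for il1b, 5.27e-09 for cxcl8a, 0.177 for caspa and 0.392 for tnfb. These values rest on 1 library per group and on counting error, so they compare libraries and not conditions. None of the 10 genes is in the authors' deposited table of 266 genes for the knockout comparison.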

How the data were processed

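RNA of 30 pooled whole larvae per group was sequenced as 1 library each for the transgenic, knockout and control groups, as the titles give them. The submitters' processing notes name HISAT, StringTie, DESeq2 and GRCz11 without version or role, and do not say whether strand was used. The authors deposited FPKM, rounded to 2 decimals, per the file headers, with log2 ratios, p-values and FDR of a Poisson comparison (FDR, treated as a score, is the authors' own). In the values the deposited ratio tables write 0 as 0.01. The table of all libraries, 19699 complete genes, is sorted by the knockout level and the part used here ends at 0.58 FPKM. A total of 40 genes had a knockout value from the other comparison alone, the highest at 0.56 FPKM. The tables were joined by gene identifier, with differences of at most 0.01 FPKM.

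Log2 ratios used a pseudocount of 1 FPKM, a floor of 1 FPKM in either library and a 2-fold rule. Folds are ratios of FPKM without pseudocount. No test was run, since there was 1 library per group. Depth was worked out from p-values of the authors for 1019 genes at 0 in control, all within 0.05 of a whole number of reads, with 100 bases taken off each length. That fit covers the transgenic and control libraries. The knockout depth is the control depth times a ratio of 1.002, fitted on only 15 such genes of the authors' knockout table. Knockout reads and intervals are thus less firmly grounded. Depths from single genes had a coefficient of variation of 31.5% in the knockout, where they were not used, and 3.84% in the transgenic. Reads were estimated from FPKM and depth. For the 6 set genes with under 50 reads in control, a pair of reads within 3% or 1 read of the estimate gave the authors' p. Intervals are 95% exact: Clopper-Pearson for ratios and Poisson for levels. They cover counting error only, and without molecular identifiers reads are not separate molecules.

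Of 204 symbols written in the lists, 173 matched by symbol and 16 through the RefSeq table of GRCz12tu. A further 2 were members of the set, and 13 were not matched, il1r1, il1r2, il18, il6, il10 and ifng1 among them. The members and lists were chosen with earlier results of these data known. All members and, by a fixed rule, the list genes with the largest differences were named: up to 6 per pathway list past the 2-fold rule, all past it in the knockout, the 4 most abundant markers per list, and the 5 nearest genes. Others are marked as chosen afterwards. Python 3.11.15, numpy 2.4.6, pandas 2.3.3 and scipy 1.17.1 were used. The inference of depth, the 2-fold rule and the counting interval were tried on simulated data. Those data held counting error alone and were made like the transgenic and control comparison. The knockout depth, the spread between pools and the other steps were not tested in this way. Alternatives were another pseudocount, other floors, median centring, a 1.5-fold rule and the counting interval.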

Additional observations from a re-analysis of the deposited data

How the results depend on the processing

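The count of 6 set genes higher in the transgenic library, over control as over the knockout, was within 1.5 times under a pseudocount of 0.1 FPKM, no floor, a floor of 5 FPKM, median centring, a 1.5-fold rule and the counting interval. The 1 gene lower in the knockout, irg1l, was less stable, with counts of 0 at a floor of 5 FPKM and under median centring, 2 by the 1.5-fold rule and 3 by the counting interval. In the pathway lists, the 1.5-fold rule gave 43 higher and 3 lower in the transgenic library over control, 40 higher and 1 lower over the knockout, and 1 higher and 9 lower in the knockout over control. A pseudocount of 0.1 FPKM gave 1 lower in both transgenic comparisons and 1 higher in the knockout, and median centring 1 lower in the transgenic over the knockout. Among 44 log2 ratios of single genes recomputed with that pseudocount or centring, 4 moved by more than their counting interval allows and 0 turned direction. Without genes under 1 FPKM in the library compared with, a choice made after the values were seen, 4 set genes were higher over control and 3 over the knockout, and 19 and 20 pathway genes. The genes left out account for these differences. The other causes were not tested. The neutrophil sum ratio over control was 0.719 in the transgenic and 1.04 in the knockout library, and 2.53 and 0.732 without cpa5 and mmp13a. No paired analysis was possible because each group had 1 library. No library could be left out for the same reason. Depth limits tnfa, tnfb, cxcl8a and the control level of il1b.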

Other observations

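The protein-coding genes next to each of the 10 genes were looked up by order in the RefSeq assembly GRCz12tu, which is not the build of the files. Pycard and caspa are neighbours of each other there, although their ratios over control in the transgenic library were 2.44 and 1.38. Of 18 other neighbours, 15 could be compared between the transgenic and control libraries, where 2 were called higher and 1 lower, against 3.56% and 1.26% of all genes. Both of the higher ones flank irg1l. Glod5 stood at 18.01 FPKM in the transgenic, 6.52 in the knockout and 4.65 in the control library, 3.87-fold above control in the transgenic (2.48 to 6.05). The uncharacterized si:ch211-153b23.3 stood at 10.46 FPKM in the transgenic library and 0.36 in control, 29.1-fold higher (15.8 to 67.4), and entered the comparison only through its transgenic level. Without it 1 of 14 neighbours was higher. The lower one was pde5aa, next to cxcl8a, at 1.47 FPKM in the transgenic, 3.12 in the knockout and 4.57 in the control library.

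Next to nfkbiaa, the proteasome subunit gene psma6b stood at 47.6 FPKM in the transgenic, 32.1 in the knockout and 50.8 in the control library. In the knockout nfkbiaa and psma6b were thus lower than in control, by 1.78-fold for nfkbiaa and 1.58-fold for psma6b (1.32 to 1.898). Brms1lb, on the other side of nfkbiaa, had a ratio of knockout over control of 0.985 (0.490 to 2.03). Of the 14 neighbours compared in the knockout, 0 passed the 2-fold rule. Neighbouring genes were examined after the values of the set were seen, and whether neighbours share their differences was not tested.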
